A study of Mus musculus with 8 samples.

Results

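The 8 genes described here, Tnfrsf11a, Nfatc1, Acp5, Dcstamp, Ocstamp, Atp6v0d2, Oscar and Calcr, carry known functions of the osteoclast, the multinucleated cell that resorbs bone. They were chosen by gene symbol, with no measured value in the rule, though earlier results of these data were known. All 8 were found among 47643 named genes of the expression table, of which 15327 had enough counts to be tested. The RNA-seq data hold 4 libraries of cultured bone marrow mesenchymal stem cells (MSCs) of C57BL/6 mice. There were 2 libraries of wild type cells (WT, which were Mettl3fl/fl) and 2 of Prx1-Cre;Mettl3fl/fl cells (cKO). Mettl3 is the catalytic subunit of the enzyme that writes N6-methyladenosine (m6A) on mRNA, and Prx1-Cre deletes it in limb mesenchyme and its descendants, a lineage that does not include the blood cells from which osteoclasts arise. MSCs were flushed from tibiae and femurs, and every sample had 2 days in osteogenic medium with ascorbic acid (50 μg/ml), β-glycerophosphate (5 mM) and dexamethasone (100 nM). The age of the animals and the number of animals per library were not given in the sources used here, nor was any enrichment of MSCs before culture. The m6A data came from wild type MSCs only, with 2 immunoprecipitates and 2 inputs that share 1 list of 10160 peaks.

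Osteoclasts form when monocytes and macrophages receive the cytokines M-CSF and RANKL. RANKL binds RANK, the product of Tnfrsf11a, and the signal passes through TRAF6, NF-κB and MAP kinases. A parallel calcium signal, raised through adaptors with ITAM motifs that partner receptors such as OSCAR, lets calcineurin switch on NFATc1, the master transcription factor of the lineage. NFATc1 then drives fusion genes (Dcstamp, Ocstamp, Atp6v0d2), enzymes of resorption (Acp5) and the calcitonin receptor (Calcr), which marks the mature cell. In bone, stromal and osteoblast lineage cells supply RANKL, its decoy receptor osteoprotegerin and M-CSF. MSC cultures from flushed marrow can also hold macrophages that adhere to the dish.

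The only members with an m6A peak were Tnfrsf11a and Nfatc1. MeRIP-Seq places a peak where RNA fragments pulled down with an m6A antibody exceed the input, and m6A is commonly written at sequences such as GGAC. The following 30-base stretches of the mm9 reference, all coding sequence on the transcript strand, surround the GGAC nearest to the summit of each peak of Tnfrsf11a, with GGAC in capitals. They are shown as the GGAC closest to the summit of each peak on the RANK message.

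Tnfrsf11a, chr1:107723931-107723960, plus strand: cagtgtttcaccgGGACtgaaagcacggtg
Tnfrsf11a, chr1:107741346-107741375, plus strand: caccccggcagaaGGACgGGACatcgcggc

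For comparison, the next sequences come from Traf6, the adaptor directly below RANK, and Prdm1, which encodes the repressor BLIMP1. Both were chosen after their values were seen.

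Traf6, chr2:101537069-101537098, plus strand: ggcgagctcaaacGGACcattcGGACcctg
Prdm1, chr10:44159706-44159735, minus strand: cagaccgtcttgaGGACatggaGGACagtg
Prdm1, chr10:44161785-44161814, minus strand: tcactttagaaaaGGACatggatggctttc

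The first GGAC of Tnfrsf11a lies 4 nt from its summit and the second 44 nt from its summit. A GGAC on the transcript strand is common in this list: it was found in 86.7% of the 9397 peaks within genes, and in 95.8% of the 1869 such peaks of 400 to 600 bp. The match describes the letters under the peak and does not locate a modified base.

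The 4 RNA-seq libraries held between 23978099 and 34106693 counts. The pair of cKO libraries lay very close together, with a coefficient of biological variation of 1.90% against 12.3% for the WT pair, so the spread behind every test comes mostly from the WT libraries. The labels do not say whether the libraries are separate animals or cultures, and the p-values measure only the spread between these libraries. CPM (counts divided by the TMM-scaled library size in units of 1000000) of Mettl3 were 17.6 and 16.9 in WT and 17.5 and 16.3 in cKO (log2 fold change −0.03, SE 0.0929, adjusted p = 0.824 by edgeR). Since Cre removes only some exons of Mettl3, and Tox4 overlaps it on the opposite strand, this gene total does not check the deletion. Of the genes tested, 30.5% had a Benjamini-Hochberg adjusted p under 0.05 in edgeR's quasi-likelihood test, 13.7% of them higher and 16.8% lower in cKO as shares of all 15327. The CPM ranges of the groups did not overlap for 69.0% of the genes tested, 34.0% with cKO higher and 35.0% with cKO lower.

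Of the 8 osteoclast lineage genes, the receptor and the transcription factor at the top of the pathway, 1 enzyme and 1 proton pump subunit were measured well enough for a test, and the fusion receptors, OSCAR and the calcitonin receptor were at or near 0. Among the 4 tested, Nfatc1 and Acp5 fell in cKO, Nfatc1 to 0.775 and Acp5 to 0.509 of its WT level, and none rose. Tnfrsf11a and Atp6v0d2 did not pass the test. The count of 2 lower calls among 4 genes stands beside 16.8% of all genes tested. The cKO range lay below the WT range for 3 of the 4, beside 35.0% of all genes, and the median log2 fold change of the 4 was −0.28 beside −0.0038 for all genes tested. These 4 genes passed a filter on counts and do not represent all members.

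**Figure D1:**
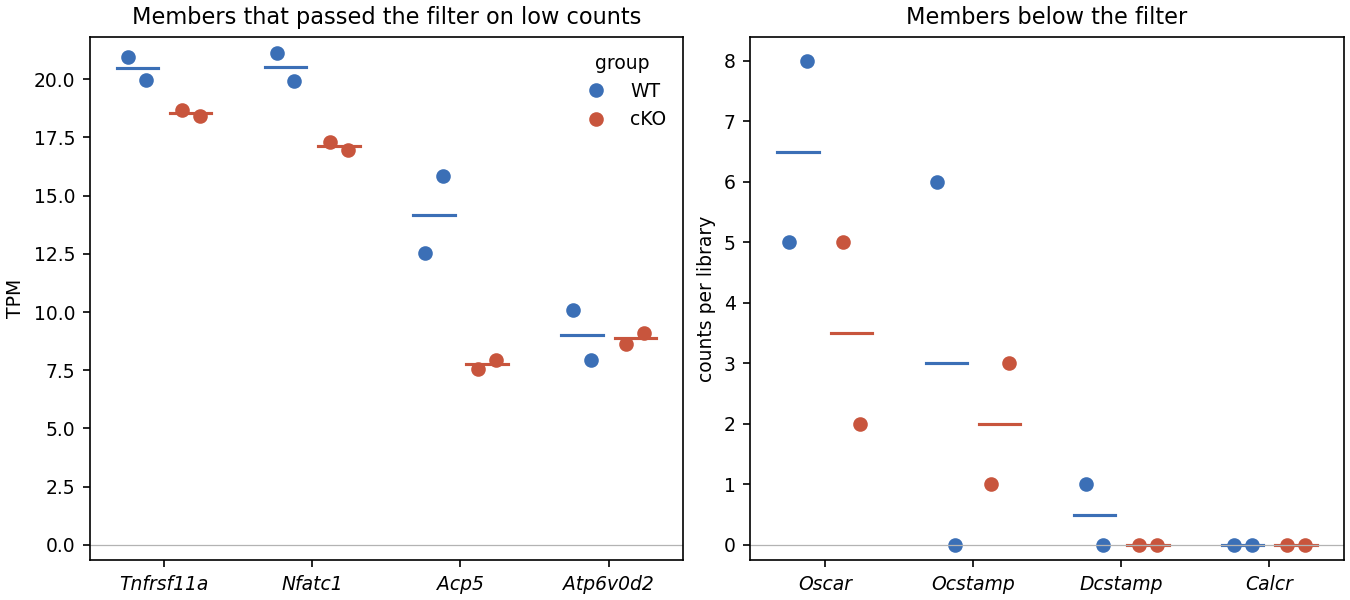
Level of the 8 osteoclast lineage genes in each library, WT in blue and cKO in red, with a bar at the mean of the 2 libraries of a group. The left panel gives the length-scaled level (TPM) of the 4 genes that passed the filter, where the Acp5 points of cKO (7.56 and 7.96) lie below those of WT (12.5 and 15.8), and the right panel gives raw counts of the 4 that did not, none above 8.

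Tnfrsf11a (ENSMUSG00000026321, GRCm38 chromosome 1, plus strand, 105780718 to 105847981) encodes RANK, the receptor through which RANKL starts osteoclast formation. Its counts were 2116 and 1718 in WT and 1314 and 1702 in cKO, or 62.6 and 60.7 CPM against 54.2 and 53.4 CPM. Both cKO libraries lay below both WT libraries. The log2 fold change was −0.20 (SE 0.0621, 95% confidence interval −0.35 to −0.05) with an unadjusted p of 0.0176 and an adjusted p of 0.0556 by edgeR, which did not pass the threshold. The log2 fold change by edgeR was −0.17 without WT replicate 1 and −0.22 without WT replicate 2. A fit with 1 WT library takes its spread from the cKO pair alone, so only its estimates are given here. Set against all genes, the receptor was well represented: 60.9% of the genes tested had a lower mean TPM.

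Nfatc1 (ENSMUSG00000033016, GRCm38 chromosome 18, minus strand, 80606205 to 80713071) gave counts of 2387 and 1913 in WT and 1314 and 1687 in cKO. In CPM these were 70.6 and 67.6 against 54.2 and 52.9. The groups did not overlap, and the gap between them was larger than the difference within either pair. The log2 fold change of Nfatc1 was −0.37 (SE 0.0631, 95% interval −0.52 to −0.22, adjusted p = 0.00728 by edgeR). The edgeR call was lost with either cKO library left out (adjusted p = 0.107 without replicate 1 and 0.144 without replicate 2) and in limma on log2(TPM + 0.1) (log2 fold change −0.26, adjusted p = 0.0875), while the direction did not change.

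Acp5 (ENSMUSG00000001348, GRCm38 chromosome 9, minus strand, 22126731 to 22135746) encodes tartrate-resistant acid phosphatase, the enzyme stained as TRAP to show osteoclasts, which macrophages can also make. Its counts were 361 and 395 in WT and 148 and 204 in cKO, or 10.7 and 13.97 CPM against 6.10 and 6.40 CPM. Every cKO value was well below every WT value, and the WT libraries differed from each other more than the cKO libraries did. Acp5 fell, with a log2 fold change of −0.97 (SE 0.161, 95% interval −1.36 to −0.59, adjusted p = 0.00629 by edgeR), the largest change of the 4 tested members. With each library left out in turn its log2 fold change ranged from −1.15 to −0.77, and it lost the call in the ordinary model on log2(TPM + 1) (−0.78, adjusted p = 0.166). In bulk RNA, fewer cells that express a gene and less RNA per cell cannot be told apart.

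Atp6v0d2 (ENSMUSG00000028238, GRCm38 chromosome 4, minus strand, 19876841 to 19922605) encodes the d2 subunit of the membrane part of the V-ATPase, the proton pump that acidifies the resorption pit, and it is required for efficient fusion of osteoclast precursors. The counts were 595 and 401 in WT and 346 and 477 in cKO, or 17.6 and 14.2 CPM against 14.3 and 14.96 CPM. Both cKO values lay between the WT values. The log2 fold change was −0.12 (SE 0.127, 95% interval −0.43 to 0.18, adjusted p = 0.515 by edgeR). WT replicate 1 decided its direction: without that library the log2 fold change by edgeR was 0.054, and without WT replicate 2 it was −0.27.

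Oscar (ENSMUSG00000054594, GRCm38 chromosome 7, minus strand, 3609813 to 3616157) encodes a collagen-binding receptor that signals through an ITAM adaptor. It had 5 and 8 counts in WT and 5 and 2 in cKO. Ocstamp (ENSMUSG00000027670, GRCm38 chromosome 2, minus strand, 165393760 to 165400405), one of the transmembrane proteins needed for fusion, had 6 and 0 counts in WT and 1 and 3 in cKO. The groups overlapped for both genes. The cKO to WT ratio of summed counts, scaled to library size, was 0.608 for Oscar (95% interval 0.205 to 1.639) and 0.753 for Ocstamp (0.156 to 3.174), intervals that cover counting error only and span 1. In the fit without a filter, in which 25.0% of 23515 genes were called (11.6% higher, 13.4% lower), neither passed the test (adjusted p by edgeR 0.7003 for Oscar and 0.883 for Ocstamp).

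Dcstamp (ENSMUSG00000022303, GRCm38 chromosome 15, plus strand, 39745932 to 39760934) encodes the fusion receptor DC-STAMP, without which osteoclasts remain mononuclear. It had 1 count in WT replicate 1 and 0 in the other libraries. Calcr (ENSMUSG00000023964, GRCm38 chromosome 6, minus strand, 3685680 to 3764714), whose product lets calcitonin stop resorption, had 0 counts in all 4 libraries. The entries of all 8 members span at least their listed gene length. A count of 0 allows up to about 3 counts, which is 0.0887 to 0.1237 CPM in these libraries, so a 0 does not exclude a level under that limit. No fold change is given for either gene.

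Per length, the order of the members was Tnfrsf11a and Nfatc1, then Acp5 and Atp6v0d2, then the 4 genes near 0. Over the 4 libraries Tnfrsf11a ranged from 18.43 to 20.96 TPM and Nfatc1 from 16.96 to 21.14 TPM, and these ranges overlapped. Acp5 ranged from 7.56 to 15.84 TPM and Atp6v0d2 from 7.93 to 10.07 TPM, which also overlapped each other but neither of the genes above. Oscar reached at most 0.23 TPM, and 1.32% of the genes tested had a lower mean TPM than it. The summed level of all 8 genes was 64.9 and 63.9 TPM in WT and 52.4 and 52.5 TPM in cKO.

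The genes whose profile over the 4 libraries was nearest to that of Nfatc1, by the root mean square difference of centred log2 CPM, were Pxdc1 (0.0093), Adgrg6 (0.0112) and Hspa9 (0.0116). For Tnfrsf11a they were Copb1 (0.0063), Wdr1 (0.0084) and Pus1 (0.0085). With only 4 libraries such likeness is common, as 1365 genes lay within 0.1 of Nfatc1 and 2874 within 0.1 of Tnfrsf11a.

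The cells that could carry these genes were followed through marker genes. All 15 macrophage markers were detected in the cultures labelled MSCs, with a summed level of 25275 and 29781 TPM in WT and 35245 and 35556 TPM in cKO. The gene for lysozyme, Lyz2, alone made up most of this sum (14418 and 20117 TPM in WT, 21566 and 21709 TPM in cKO). By edgeR, 5 of the 15 were higher in cKO (Ptprc, C1qa, C1qb, C1qc and Cx3cr1), none was lower, and the median log2 fold change was 0.22. The shares over all genes tested were 13.7% higher and 16.8% lower. Csf1r, the receptor for M-CSF that osteoclast precursors need, had 477 and 516 TPM in WT and 533 and 540 TPM in cKO (log2 fold change 0.01, SE 0.0675, adjusted p = 0.927 by edgeR). None of the macrophage markers was called lower where Nfatc1 and Acp5 were, and the part of these cells in the members' values was not tested.

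Divided by Csf1r within each library, Tnfrsf11a stood at 4.40% and 3.87% of the Csf1r TPM in WT and at 3.51% and 3.41% in cKO. Nfatc1 gave 4.44% and 3.86% against 3.24% and 3.14%, and Acp5 2.63% and 3.07% against 1.42% and 1.47%. For these genes the groups did not overlap on this scale. The share of all genes without overlap was not computed on this scale. On CPM it was 69.0% of the genes tested, with cKO lower for 35.0%. Atp6v0d2 gave 2.11% and 1.54% against 1.62% and 1.68%, with the cKO values between those of WT. When library sizes were instead set by the 15 macrophage markers, a choice made after seeing the data, the median of all genes moved to −0.26 on the log2 scale and all 4 members were called lower, as were 5619 of the 15327 genes. Relative to that median the members' differences were −0.19 for Tnfrsf11a, −0.36 for Nfatc1, −0.97 for Acp5 and −0.11 for Atp6v0d2.

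Other cell types also differed between the groups. The calls of their markers stand beside 13.7% of all genes tested called higher and 16.8% called lower. The 12 mesenchymal markers summed to 1395 and 1252 TPM in WT and to 1009 and 1031 TPM in cKO, and all were detected. Their calls went both ways, with 5 higher (Thy1, Twist1, Prrx1, Pdgfrb and Pdgfra) and 6 lower, among these Col1a1, Col1a2 and Cxcl12, the markers with the highest TPM. The 6 chondrocyte markers summed to 1273 and 1288 TPM in WT and to 33.7 and 32.4 TPM in cKO (5 lower, none higher). The 8 osteoblast markers summed to 6925 and 16422 TPM in WT and to 6991 and 6917 TPM in cKO (5 lower, none higher), with WT replicate 2 above the rest. Spp1 made up most of their counts (929019 in total, against 20773 for Ibsp, the next). The 4 adipocyte markers summed to 176 and 196 TPM in WT and to 334 and 336 TPM in cKO (3 higher and 1, Cidec, lower). The part of these differences in the members' values was not tested.

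Further cell types the cultures could hold were followed in the same way. The 8 neutrophil markers summed to 18.3 and 20.8 TPM in WT and to 5.92 and 3.87 TPM in cKO, most of it S100a8, which was called lower. Ngp was at 0 in every library, as were S100a9, Mpo and Ltf, but the table entries of these last genes span less of the genome than their listed length, so their 0 is not read as absence. Dendritic cell markers summed to between 2.46 and 2.98 TPM. Endothelial markers summed to 1.23 and 1.33 TPM in WT and to 9.34 and 7.92 TPM in cKO, with Kdr and Emcn called higher, and megakaryocyte and erythroid markers to 53.2 and 10.3 TPM in WT and to 22.9 and 24.7 TPM in cKO.

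**Figure D2:**
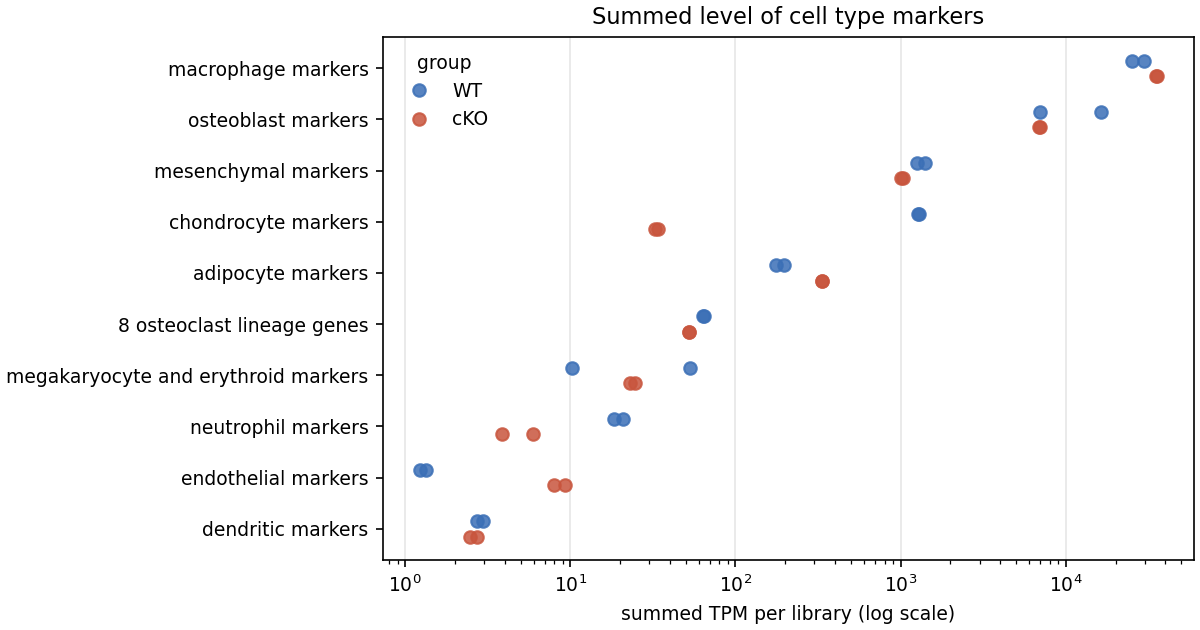
Summed TPM (log axis) of each list of cell type markers and of the 8 osteoclast lineage genes, with 1 point per library, WT in blue and cKO in red. Macrophage markers lie at 25275 TPM or above in every library, while the 8 osteoclast lineage genes together lie between 52.4 and 64.9 TPM.

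The other genes of the pathway were taken from 9 lists with 98 genes, of which 92 were tested. By edgeR 26 were higher in cKO and 13 lower, and 53 were not called, with a median log2 fold change of 0.06. Over all genes tested 13.7% were higher and 16.8% lower, the background against which this count and those of each list below stand. The counts depended on the libraries, with 4 higher and 7 lower when either cKO library was left out, 45 and 26 without WT replicate 1, and 39 and 30 without WT replicate 2. The members, with 0 higher and 2 lower of 4, are described beside these lists in the order of the pathway.

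The ligand list held the largest difference of any pathway gene, that of Tnfsf11, and all 4 of its genes were called. Tnfsf11 encodes RANKL, the ligand of the receptor made from Tnfrsf11a. It had 388 and 313 counts in WT and 12 and 8 in cKO, and it fell by 4.96 on the log2 scale (SE 0.253, adjusted p = 6.30e-05 by edgeR). Tnfrsf11b, the gene of the decoy receptor osteoprotegerin, fell from 1862 and 1221 counts in WT to 356 and 483 in cKO (log2 fold change −1.72, SE 0.130, adjusted p = 0.000295 by edgeR). The ligands of the M-CSF receptor went the other way: Csf1, which encodes M-CSF itself, had 166 and 136 TPM in WT and 266 and 268 TPM in cKO (log2 fold change 0.74, SE 0.0916, adjusted p = 0.00212 by edgeR). Il34, the alternative ligand, rose by a log2 fold change of 0.40 (SE 0.106, adjusted p = 0.0313 by edgeR). The fall of Tnfsf11 stands beside lower calls among the chondrocyte and osteoblast markers, and their part in it was not tested.

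Below the receptor, none of the 17 signalling genes fell and 6 rose: Traf6, Traf3, Nfkb1, Mapk14, Src and Gab2. The changes were small, with a median of 0.16 over the list. Traf6, which RANK recruits to pass on its signal, gave 10.0 and 8.98 TPM in WT and 11.5 and 12.1 TPM in cKO (log2 fold change 0.24, SE 0.0714, adjusted p = 0.0450 by edgeR). Gab2, an adaptor bound by RANK, had the largest rise of the list at 0.46 (SE 0.0631, adjusted p = 0.00320 by edgeR). The p38 kinase gene Mapk14 rose by a log2 fold change of 0.30 (adjusted p = 0.0108 by edgeR), and Rela, the p65 subunit of NF-κB, had a value of 0.21 that did not pass (adjusted p = 0.0613 by edgeR).

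Among the genes tested, the calcium arm that activates NFATc1 ranged from abundant adaptors to Camk4, at no more than 0.37 TPM. Siglec15, also in this list, was at 0 in every library. Its table entry spans less of the genome than its listed length, so this 0 is not read as absence. Tyrobp, the gene of the ITAM adaptor DAP12, had 1798 and 1686 TPM in WT and 1675 and 1651 TPM in cKO, a log2 fold change of −0.17 that did not pass (adjusted p = 0.0727 by edgeR). Fcer1g, the adaptor that pairs with OSCAR, had 1057 and 1055 TPM in WT against 1399 and 1389 TPM in cKO and rose (log2 fold change 0.29, SE 0.0631, adjusted p = 0.0164 by edgeR). The adaptor for OSCAR was thus abundant in libraries in which Oscar itself had 8 counts or fewer. Of 13 genes tested in this list 3 rose (Fcer1g, Syk and Plcg2), 1 fell and 9 were not called. Syk, the kinase recruited by ITAM motifs, rose by a log2 fold change of 0.41 (adjusted p = 0.00314 by edgeR). Ppp3ca, a catalytic subunit of calcineurin, was the gene that fell (log2 fold change −0.26, adjusted p = 0.0191 by edgeR), but its length-scaled level did not follow (90.7 and 94.4 TPM in WT, 93.2 and 101 TPM in cKO).

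Among the other members of the NFAT family, 3 of 4 rose and none fell, whereas Nfatc1 fell. Nfatc2 had 7.64 and 5.70 TPM in WT and 10.4 and 10.6 TPM in cKO (log2 fold change 0.58, SE 0.133, adjusted p = 0.0204 by edgeR). Nfatc4 rose by a log2 fold change of 0.32 (adjusted p = 0.0277) and Nfatc3 by 0.23 (adjusted p = 0.0268), both by edgeR, although Esrp2 overlaps Nfatc3 on the opposite strand. Nfat5, with 19.7 and 16.5 TPM in WT and 23.3 and 21.2 TPM in cKO, did not pass (log2 fold change 0.13, adjusted p = 0.245 by edgeR). Nfatc1 was at 21.1 and 19.9 TPM in WT and 17.3 and 17.0 TPM in cKO, so that the list around it and Nfatc1 differed in the sign of their changes. The difference between these genes' changes was not itself tested.

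Transcription factors that act with NFATc1 or hold it back moved in both directions, with 5 higher, 2 lower and 4 not called of 11. The AP-1 genes Fosl1 and Fos fell, with log2 fold changes of −2.50 and −1.93 (adjusted p = 4.09e-05 and 7.49e-05 by edgeR). c-Fos is required for the induction of Nfatc1 during osteoclast formation. Fos had 21.9 and 26.0 TPM in WT and 7.13 and 6.60 TPM in cKO. Prdm1, whose product represses inhibitors of osteoclast formation, rose from 38 and 23 counts in WT to 117 and 163 in cKO (log2 fold change 2.34, SE 0.235, adjusted p = 0.000943 by edgeR). Irf8, a macrophage factor that restrains NFATc1, rose as well (log2 fold change 0.58, SE 0.0698, adjusted p = 0.00191 by edgeR), as did Mitf (0.48, adjusted p = 0.00636 by edgeR). Spi1, the gene of PU.1, was at 290 and 329 TPM in WT and 346 and 337 TPM in cKO (log2 fold change 0.02, adjusted p = 0.892 by edgeR), and Jdp2 gave −0.16 (adjusted p = 0.104 by edgeR).

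The 7 further fusion genes were all tested. Sirpa and Adam8, the genes with the highest mean TPM of this list, had log2 fold changes of 0.10 and −0.25 that did not pass (adjusted p = 0.423 and 0.0849 by edgeR). Of 7 genes 2 rose, the tetraspanin genes Cd9 and Cd81 (log2 fold change 0.45 for Cd81, adjusted p = 0.00360 by edgeR), and 2 fell, Cd44 and the protease gene Adam12 (−1.12, adjusted p = 0.000280 by edgeR).

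Acp5 can be set beside 14 other resorption genes, of which 12 were tested, with 4 higher, 2 lower and 6 not called. Ctsk, the gene of cathepsin K, which digests bone collagen, fell like Acp5, from 102 and 82.6 TPM in WT to 63.0 and 61.0 TPM in cKO (log2 fold change −0.67, SE 0.0939, adjusted p = 0.00335 by edgeR). It was named after its values were seen. Slc9b2, a sodium and proton exchanger gene induced in osteoclasts, had the largest fall of the list (−1.70, SE 0.452, adjusted p = 0.0327 by edgeR) on low counts of 43 and 77 in WT and 14 and 20 in cKO. Itgb3, the β3 chain of the integrin with which osteoclasts hold bone, rose from 172 and 93 counts to 196 and 265 (log2 fold change 0.96, SE 0.214, adjusted p = 0.0184 by edgeR). Tcirg1, the a3 subunit of the proton pump, rose by a log2 fold change of 0.28 (adjusted p = 0.0138 by edgeR), and Rab7, a regulator of late endosomes, had 0.10 (adjusted p = 0.233 by edgeR). Mmp9, with 1 and 1 counts in WT and 2 and 6 in cKO, and Car2, with 11 and 39 against 4 and 6, fell below the filter.

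Atp6v0d2 belongs to the V-ATPase complex, and 19 genes of the list of its other subunits were tested. Of these none rose, 2 fell and 17 were not called, with a median of −0.07. Tcirg1, the a3 subunit, was counted among the resorption genes and rose (log2 fold change 0.28, adjusted p = 0.0138 by edgeR). The ubiquitous counterpart of Atp6v0d2, Atp6v0d1, had 162 and 150 TPM in WT and 158 and 159 TPM in cKO (log2 fold change −0.09, adjusted p = 0.335 by edgeR), far above the 7.93 to 10.07 TPM of Atp6v0d2. Atp6v0c and Atp6v0e, the subunit genes with the highest mean TPM, had log2 fold changes of 0.07 and −0.19 (adjusted p = 0.507 and 0.0609 by edgeR). The subunits that fell were Atp6v0a2 (−0.33, adjusted p = 0.0104 by edgeR) and Atp6v1c2 (−2.47, SE 0.744, adjusted p = 0.0486 by edgeR), the latter with 15 and 40 counts in WT and 5 and 4 in cKO and with Pdia6, a highly expressed gene, on the opposite strand.

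While Calcr was at 0, its relative Calcrl was measured at 10.8 and 12.1 TPM in WT and 14.9 and 17.7 TPM in cKO and rose (log2 fold change 0.31, SE 0.0810, adjusted p = 0.0297 by edgeR). Calcrl encodes the receptor for CGRP and adrenomedullin. Of 5 genes tested in this list 1 rose, 2 fell and 2 were not called. Among the RAMP partners of Calcrl, Ramp3 fell from 53 and 75 counts in WT to 1 and 7 in cKO (log2 fold change −3.86, SE 0.598, adjusted p = 0.00501 by edgeR). Ramp2, which overlaps Vps25 on the same strand, had −0.71 (adjusted p = 0.0521 by edgeR). Ramp1 was not called (log2 fold change 0.0003, SE 0.244). Calca fell from 32 and 21 counts in WT to 3 and 6 in cKO (log2 fold change −2.38, SE 0.472, adjusted p = 0.0123 by edgeR).

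**Figure D3:**
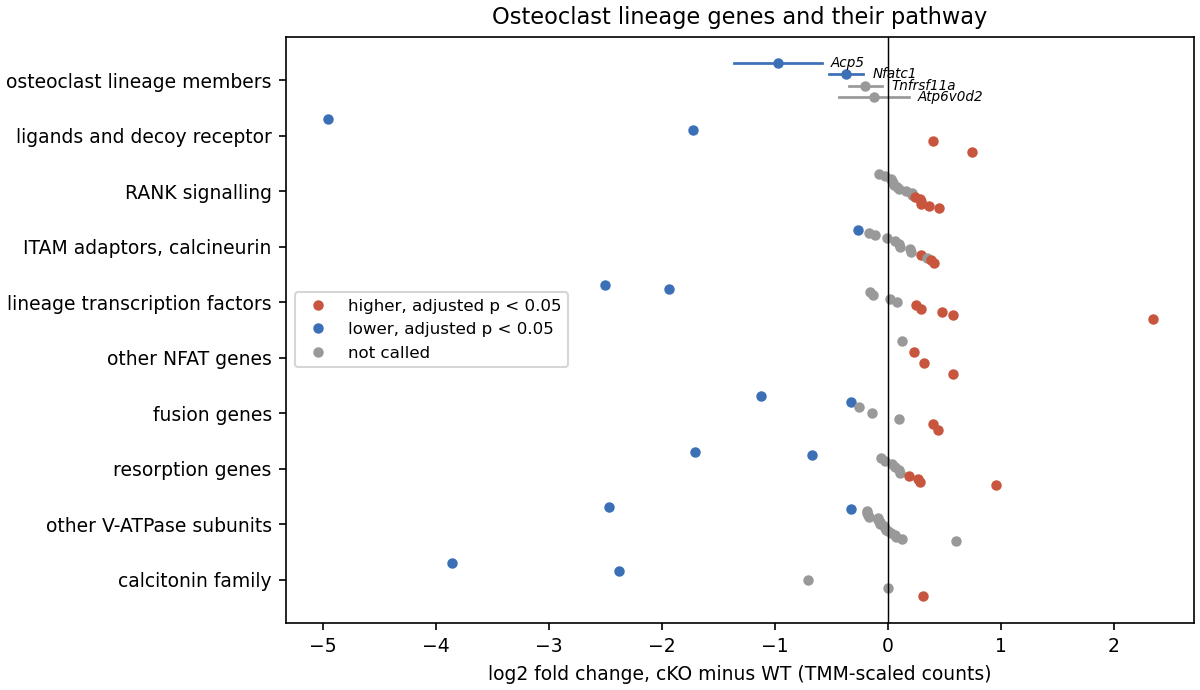
Log2 fold change of cKO against WT (TMM-scaled counts) for each tested gene of the osteoclast lineage and of the 9 pathway lists, with 1 point per gene, red where called higher, blue where called lower and grey where not called, and 95% intervals for the 4 members. All 4 members lie left of 0, from −0.97 for Acp5 to −0.12 for Atp6v0d2, and most genes of the list of other V-ATPase subunits gather near 0.

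In wild type MSCs, Tnfrsf11a and Nfatc1 carried 2 m6A peaks each, placed on the mm9 gene models by their summits. The peaks give no replicate error, since they come from 1 joint list. On Tnfrsf11a the first peak, chr1:107723641-107724218 (578 bp), had its summit in the coding sequence of exon 9 of 10, which is 716 nt before the last coding base. Its pileup was 142 fragments, its fold enrichment 3.38 and its −log10 q-value 30.02. The second, chr1:107740997-107741462 (466 bp), had its summit in the coding part of exon 10, 125 nt before the last coding base, with a pileup of 121, a fold enrichment of 4.28 and a −log10 q-value of 34.6. Both summits thus lie in the coding sequence of the transcript, which is 1875 nt long and is followed by a 3′UTR of 3118 nt. The second peak itself runs past the end of the coding sequence into the bases that follow it. The 2 peaks contain 5 and 3 copies of GGAC, among them those printed above.

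On Nfatc1 the peak at chr18:80804347-80804831 (485 bp) had its summit in the 3′UTR, 77 nt past the last coding base, and a pileup of 107, a fold enrichment of 3.28 and a −log10 q-value of 21.6. The other, chr18:80894441-80894867 (427 bp), had its summit in coding exon 2 of 10, at −1857 nt from the last coding base, with a pileup of 114, a fold enrichment of 2.83 and a −log10 q-value of 18.1. They contain 2 and 1 copies of GGAC. Each gene therefore had 1 summit within 125 nt of the end of its coding sequence and 1 farther upstream.

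Among the 10160 peaks, the 4 peaks of these genes ranked between 704 and 1856 by pileup and between 717 and 3670 by q-value, but only between 4540 and 8164 by fold enrichment. Their coverage was thus high and their enrichment ordinary or low, beside medians of 60 fragments and 4.03-fold for the whole list. The peak of Traf6 had a fold enrichment of 6.53, and those of Prdm1 had 5.16 and 8.26.

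**Figure D4:**
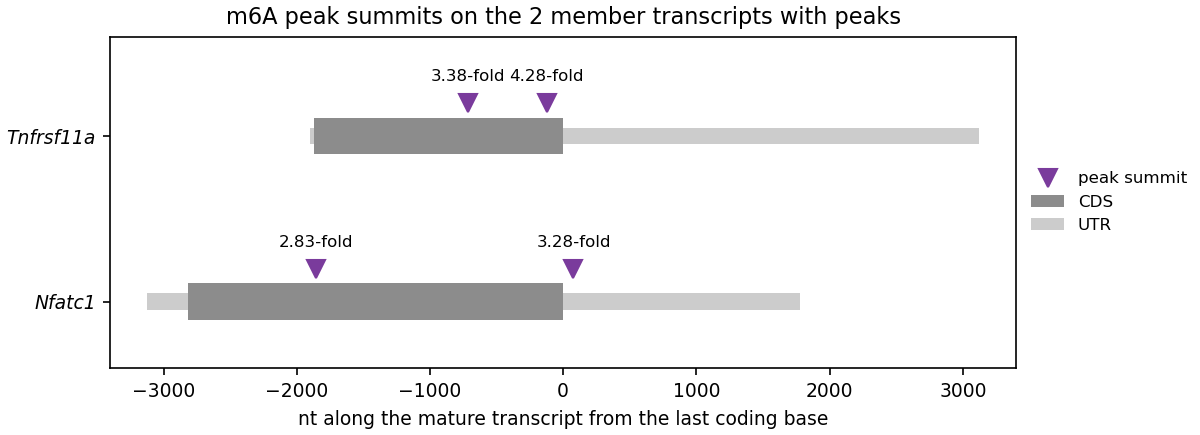
Position of the m6A peak summits on the mature transcripts of Tnfrsf11a and Nfatc1, in nt from the last coding base (0), with coding sequence in dark grey, UTRs in light grey and the fold enrichment above each triangle. Each transcript has 1 summit close to the end of the coding sequence (−125 nt in Tnfrsf11a, 77 nt in Nfatc1) and 1 upstream (−716 and −1857 nt).

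No peak lay on Acp5, Atp6v0d2, Dcstamp, Ocstamp, Oscar or Calcr. The nearest summit was 13208 bp from Acp5 and 1835073 bp from Atp6v0d2. Among genes tested that were under 1 TPM in WT, 16.9% of 1738 had a peak. The 4 members near 0 did not pass the filter and are not in this class. Only 1.32% of the genes tested had a lower mean TPM than Oscar, the highest of them. The share at their own level was not computed. Of 14118 genes tested that are also in the mm9 annotation, 42.0% had a peak, and at a mean WT level of 5 to 40 TPM, which holds the 4 expressed members, the share was 51.4% of 6403 genes. It also moved with length: at this level 38.6% of 1385 genes of 1500 to 3000 nt had a peak, the class of Acp5 (1612 nt) and Atp6v0d2 (2716 nt), and 59.3% of 1606 genes of 5000 to 8000 nt, the class of Tnfrsf11a (5985 nt) and Nfatc1 (7433 nt). The members with peaks were thus the long pair and those without were the short pair.

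Of the 98 other pathway genes, 39 carried a peak, beside 42.0% of the 14118 genes tested that are in the mm9 annotation. The lists also include genes that were not tested. Transcription factors had one most often (10 of 11), followed by other NFAT genes (3 of 4, with 7 peaks on Nfatc2) and the signalling genes below RANK (11 of 17, with 4 peaks on Tab2). Peaks lay on 2 of 4 ligand genes (Csf1 and Tnfrsf11b, not Tnfsf11) and on 5 of 14 genes of the ITAM and calcineurin list. The remaining lists had lower shares, with 2 of 7 fusion genes, 3 of 14 resorption genes (Itgb3, Plekhm1 and Rab7), 3 of 21 V-ATPase subunits and 0 of 6 calcitonin family genes. Of the members, only Tnfrsf11a and Nfatc1 had peaks. Among those without, Oscar, Ocstamp, Dcstamp and Calcr had too few counts for the test. Acp5 and Atp6v0d2 were the shorter pair of the expressed members. The lists differ in RNA level and gene length, and the differences between their shares were not tested.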

How the data were processed

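RNA-seq used 4 libraries (2 WT, 2 cKO) and MeRIP-Seq 4 samples of wild type MSCs. For RNA-seq the authors aligned reads with HISAT2 2.0.4. They deposited estimated counts per gene, without normalization, on GRCm38 positions, and a column headed FPKM that sums to 1000000 per library, so that the deposited values are TPM. Neither the counting tool nor its use of strand was given in the sources used here. The deposited m6A list, in the layout of MACS2, holds each peak's pileup signal, its fold enrichment as a ratio over local background and the −log10 q-value. These are the authors' values on mm9 and do not show whether samples were pooled.

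Estimated counts were rounded. The 89 unnamed entries (0.110% to 0.125% of counts) were left out. After filterByExpr and TMM scaling, cKO and WT were compared in edgeR 4.0.16 by its quasi-likelihood test (two-sided, no block), and p-values were adjusted over 15327 genes. Standard errors came from the fold change and its F statistic. With 2 against 2 libraries an exact permutation test cannot give p below 0.333. The correlation of the replicate differences in WT and in cKO was 0.04 over 15327 genes. Since the cKO libraries lay so close together, this value cannot show whether replicate numbers pair the libraries. Peaks were placed by summit on GENCODE vM1, by Ensembl identifier, with coding sequence given precedence over UTRs and exons over introns. Sequences were read from the NCBIM37 (mm9) genome. Reads carry no molecular identifiers and so are not separate molecules, and intervals and limits at 0 reflect counting error alone.

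The members, the 9 pathway lists and the 10 marker lists were chosen with earlier results of these data known, and 1 marker list is not reported here. Besides the members, the text names the 2 genes of highest mean TPM and the largest called rise and fall of each list, genes with a peak, and the 3 nearest profiles of the 2 members with most counts. Other genes in the text, such as markers or further called genes of a list, were named after their values were seen. Alternatives were a replicate block, no filter, median-of-ratios factors, DESeq2 1.42.0, limma 3.58.1 on log2(TPM + 0.1), an ordinary model on log2(TPM + 1), the cKO libraries summed, each library left out and, for peaks, other thresholds. Library sizes from macrophage markers, and a background of genes of like TPM and length for peaks, were added after seeing the data.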

Additional observations from a re-analysis of the deposited data

How the results depend on the processing

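By edgeR 2100 genes were higher and 2577 lower in cKO, with 0 and 2 of the members and 26 and 13 of the pathway genes. With the cKO libraries summed to 1 sample, for which the lone sample is assumed to vary like WT, these were 793 and 1219, 0 and 1, and 6 and 7, and Nfatc1 had −0.36 (adjusted p = 0.118). With limma on log2(TPM + 0.1), 1779 genes were higher and 1442 lower, so that more were higher than lower, and 1 member was lower, and Nfatc1 had −0.26 (adjusted p = 0.0875). The ordinary model on log2(TPM + 1), which shares no spread between genes, called 27 genes higher and 38 lower, 0 members, and 2 and 0 pathway genes, with −0.25 for Nfatc1 (adjusted p = 0.149) and −0.78 for Acp5 (adjusted p = 0.166). Macrophage size factors, chosen after seeing the data, moved the median of all genes to −0.26 and called 820 genes higher and 5619 lower, 4 members lower, and 5 and 34 pathway genes, with −0.45 for Tnfrsf11a (adjusted p = 0.00406) and −0.37 for Atp6v0d2 (adjusted p = 0.0422). Beyond what these constructions show, the cause was not tested.

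With each library left out in turn, where a lone library was again assumed to vary like the others, genes called ranged from 724 to 4255 higher and from 1143 to 4495 lower. Members called lower ranged from 1 (without either cKO library) to 4 (without WT replicate 2), and pathway genes from 4 to 45 higher and from 7 to 30 lower. Fewest calls came without a cKO library and most without a WT library. Log2 fold changes ranged from −0.22 to −0.17 for Tnfrsf11a, from −0.40 to −0.33 for Nfatc1, from −1.15 to −0.77 for Acp5 and from −0.27 to 0.054 for Atp6v0d2, which turned positive without WT replicate 1.

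With the replicate number as a block, edgeR gave 2253 genes higher and 2628 lower, 2 members lower, and −0.20 for Tnfrsf11a (adjusted p = 0.0859), −0.37 for Nfatc1 (0.00596), −0.97 for Acp5 (0.000965) and −0.11 for Atp6v0d2 (0.560), and it changed no call of a member. DESeq2, no filter and median-of-ratios factors kept the direction and side of the threshold of all 4. Both members with a peak kept 1 or more under every peak threshold, while the 39 pathway genes with a peak became 26 at a −log10 q-value of at least 10 and 26 at a fold enrichment of at least 3. Depth limits Oscar, Ocstamp, Dcstamp and Calcr to their counts.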
